A study of Cavia porcellus with 12 samples.

Results

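The miR-10 and miR-125 families were followed in small RNA of guinea pig heart muscle cells. Their members were 5 human precursors, hsa-mir-10a, hsa-mir-10b, hsa-mir-125a, hsa-mir-125b-1 and hsa-mir-125b-2, of the 289 human precursors in 3 deposited tables. An entry is a sequence listed under a precursor, and it was a member when its name ended exactly in one of these precursor names. Members made up 47 of 1610 entries in the table for 1 h, 34 of 1335 in the table for 22 h and 58 of 4979 in the third table. Over all tables they were 63 of 5095 entries. Of these 63, 34 stood in every table, 5 in the 1 h table only and 16 in the third table only.

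Ventricular cardiomyocytes, isolated from adult female Hartley guinea pigs, were kept at room temperature with 10 µM doxorubicin (DOX), an anthracycline used against tumours, or with its vehicle dimethyl sulfoxide (DMSO). The 4 groups were DMSO for 1 h, DOX for 1 h, DMSO for 22 h and DOX for 22 h, each labelled with 3 libraries, 12 in all. The tables set DOX beside DMSO at 1 h, DOX beside DMSO at 22 h, and DOX at 22 h beside DOX at 1 h (the third table). Alignment was to human sequences (hg19 among the builds in the labels), and the share of guinea pig reads that this left out was not tested.

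Precursors of the miR-10 family lie inside the HOX gene clusters, hsa-mir-10a in HOXB and hsa-mir-10b in HOXD. The miR-125 family descends from lin-4, the first known miRNA, and its precursors are transcribed beside members of the miR-99 and let-7 families. A miRNA is cut from the 5′ arm (5p) or the 3′ arm (3p) of its precursor, and it pairs with target messenger RNAs mainly through its seed, a short stretch near its 5′ end.

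The listed sequences start inside the mature miRNAs as these are usually annotated, so complete seeds were not read from them. Sequences below run 5′ to 3′ with T for U, and positions are counted from 1 at the 5′ end of the listed sequence. The first set shows a form of each miR-10 member, with the bases that differ between these forms in capitals:

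hsa-mir-10b 5p: ccctgtagAAccgaatttgtg

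hsa-mir-10a 5p: ccctgtagGTccgaatttgtg

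From hsa-mir-10b to hsa-mir-10a, these forms differed by 2 substitutions, A9G and A10T. Of the 7 entries of hsa-mir-10a, 5 carried the bases of this form. They held 100% of its mean for 1 h and for 22 h, and 80.6% for the third table. Whether these are the bases of annotated miR-10a was not tested. The next set shows the most abundant 5p forms of the miR-125 family, with the bases after their common start in capitals:

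hsa-mir-125a 5p: cctgagaccctTTAACCTGT

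hsa-mir-125b-1 5p: cctgagaccctAACTTGTGA

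The first 11 bases were the same in both. The form of hsa-mir-125b-1 was also listed, letter for letter, under hsa-mir-125b-2. The 3p arms of the miR-125 precursors follow, with the stretch of 8 bases that all 3 hold in capitals:

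hsa-mir-125a 3p: aggtgaggtTCTTGGGAgc

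hsa-mir-125b-1 3p: gggttaggcTCTTGGGAgct

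hsa-mir-125b-2 3p: acaagtcaggcTCTTGGGA

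Pairs of these arms shared some further bases beside this stretch, but their first bases differed. No listed 3p sequence stood under more than 1 of these precursors, unlike the 5p sequences of miR-125b.

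No table holds a value per library. The deposited value is a mean over both groups of reads divided by size factors, here called the mean normalized count, so no SD between replicates could be had. The means of the 1 h and 22 h tables had lost their decimal mark, and their power of 10 was restored from the third table. All 42 member entries at 1 h that had a partner there, and all 34 at 22 h, received a mean, and 5 entries at 1 h stayed without one. As a measure of depth, the table sums were 5874566 mean normalized counts for 1 h, 4776593 for 22 h and 6005178 for the third.

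In the 22 h table and the third table, the names of predicted miRNAs gave 1 library on each side, numbered 1 in 12 of 12 and 29 of 29 names. For 1323 of 1323 entries with a mean in both tables, whole numbers of reads in those libraries gave the listed means. Solving both tables together through the DOX 22 h library, which they share, gave the reads of 3 libraries: DOX 22 h, DMSO 22 h and DOX 1 h. A single solution was found for 1216 entries. These held 474736 reads in DOX 22 h, 440362 in DMSO 22 h and 623625 in DOX 1 h, and the 26 member entries among them held 5273, 6063 and 7917 reads. Members were thus 1.11%, 1.38% and 1.27% of the recovered reads. The remaining 8 of the 34 member entries at 22 h, the most abundant forms of miR-125a and miR-125b, had 2 to 9 solutions and made up 94.2% of the members' mean. They have a level in each table but no reads here.

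The levels were led by miR-125b in each table. The 5p entries of hsa-mir-125b-1 and hsa-mir-125b-2 together held 74.9% of the members' summed mean for 1 h, 77.5% for 22 h and 78.1% for the third table. All members together summed to 148597 mean normalized counts for 1 h, 99031 for 22 h and 129106 for the third table, which is 2.53%, 2.07% and 2.15% of each table. The tables were normalized separately, so levels are ordered within a table and only set side by side across tables.

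The 5p arm of hsa-mir-125b-1 had 55687 mean normalized counts for 1 h, 38419 for 22 h and 50459.9 for the third table. That of hsa-mir-125b-2 had 55639.9, 38337 and 50362. These near-equal levels belong to shared sequences and are not independent measurements of 2 genes. The 5p arm of hsa-mir-125a, the precursor that lies beside hsa-mir-99b and hsa-let-7e, followed with 31443, 19030 and 24338. Over hsa-mir-125a, the level of miR-125b 5p was 3.54-fold for 1 h, 4.03-fold for 22 h and 4.14-fold for the third table.

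The miR-10 members stood far below the miR-125 members. The 5p arm of hsa-mir-10b had 4887, 2622 and 2985 mean normalized counts for 1 h, for 22 h and for the third table, and that of hsa-mir-10a had 79.8, 23.4 and 52.6. Within the family, hsa-mir-10b 5p was therefore 61.2-fold, 112-fold and 56.7-fold above hsa-mir-10a 5p. These values depended on the rare forms of hsa-mir-10a: with the most abundant entry of each arm they were 136-fold, 157-fold and 216-fold, and with means of at least 10 the last was 296-fold. Entries of hsa-mir-10a are counted as listed, and whether they match annotated miR-10a was not tested. Between the families, the 5p level of miR-125 was 28.7-fold, 36.2-fold and 41.2-fold that of miR-10.

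**Figure D1:**
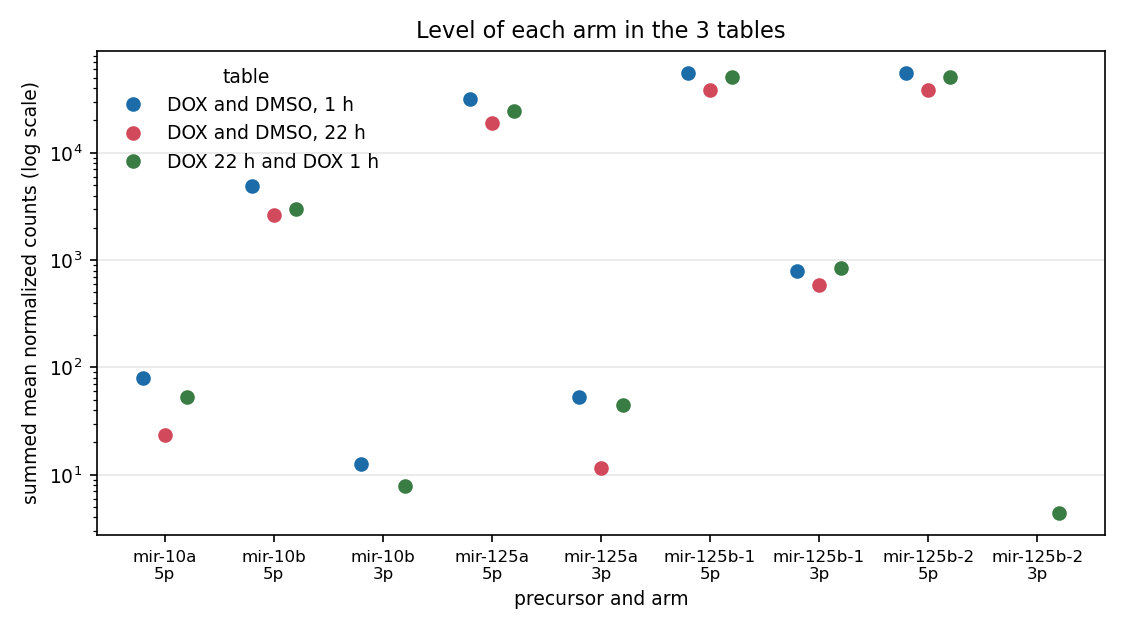
Summed mean normalized count of each arm of the 5 precursors on a log axis, with 1 point per table and no error bar because the tables give no spread. The 5p points of hsa-mir-125b-1 and hsa-mir-125b-2 lie at the top at the same heights, and hsa-mir-125b-2 3p appears in the third table only, at 4.41.

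By summed mean over both arms, the order of the members was the same in the 3 tables: hsa-mir-125b-1, hsa-mir-125b-2, hsa-mir-125a, hsa-mir-10b and hsa-mir-10a. At 1 h these stood at ranks 22, 23, 31, 73 and 180 of 243 precursors. At 22 h the ranks were 22, 23, 31, 79 and 199 of 224. For DOX 22 h with DOX 1 h they were 22, 23, 31, 79 and 192 of 287. With no spread over libraries, whether neighbours in this order differ was not tested. The points for each arm in the plot of levels by table show the same order, with the 22 h level the lowest wherever an arm was listed in all 3.

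Products of the 3p arms, usually the passenger strands of these precursors, were low. The 3p arm of hsa-mir-125b-1 had 795 mean normalized counts for 1 h, 588 for 22 h and 852 for the third table. Its 5p arm stood 70.1-fold, 65.3-fold and 59.2-fold higher, although those 5p reads may come from either locus. For hsa-mir-125a the 3p arm had 52.8, 11.5 and 44.5 mean normalized counts, and its 5p arm was 596-fold, 1656-fold and 546-fold higher. The 22 h value rests on a single 3p entry.

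For hsa-mir-10b the 3p level was 12.6 mean normalized counts at 1 h and 7.94 in the third table, each from the same entry, shown with no base in capitals:

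hsa-mir-10b 3p: agattcgattctaggggaat

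It was not listed at 22 h, and its 5p arm stood 389-fold and 376-fold higher at 1 h and in the third table. No 3p entry was listed for hsa-mir-10a. For hsa-mir-125b-2 a 3p entry was listed in the third table only, at 4.41 mean normalized counts. There, the 3p arm of hsa-mir-125b-1 was 193-fold higher than that of hsa-mir-125b-2, whereas the 5p arms had nearly the same level. The level of the guinea pig transcripts behind this contrast was not tested.

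The 5p arms differed in how their forms (isomiRs) were spread over lengths. Forms of miR-125b were listed from 14 to 20 bases, all from the same start, and they are shown here with the last base in capitals:

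hsa-mir-125b-2 5p: cctgagaccctaaC

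hsa-mir-125b-2 5p: cctgagaccctaacT

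hsa-mir-125b-2 5p: cctgagaccctaactT

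hsa-mir-125b-2 5p: cctgagaccctaacttG

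hsa-mir-125b-2 5p: cctgagaccctaacttgT

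hsa-mir-125b-2 5p: cctgagaccctaacttgtG

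hsa-mir-125b-2 5p: cctgagaccctaacttgtgA

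For hsa-mir-125b-1, the 20-base form held 62.2% of the 5p mean for 1 h, 61.4% for 22 h and 62.9% for the third table. The 19-base form held 20.8%, 20.9% and 20.5%, and the 18-base forms 14.1%, 14.5% and 13.9%. Shorter forms were rare, with 1.93%, 2.24% and 1.86% at 17 bases and 0.713%, 0.770% and 0.678% at 16 bases. The spread was thus a ladder toward shorter 3′ ends, and it was alike in the 3 tables. For hsa-mir-125b-2 the 20-base form held 62.3%, 61.5% and 63.1%.

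Among forms of up to 21 bases, the longest listed, hsa-mir-125a showed no such ladder, although it shares its start with miR-125b. Its 20-base form held 60.5%, 58.2% and 58.8% of its 5p mean, and its 21-base form, longer by a G, held 39.4%, 41.7% and 41.0%. Forms of fewer than 20 bases together held 0.0919%, 0.0954% and 0.1196%. The main listed forms of hsa-mir-125a thus ended within a base of each other.

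For hsa-mir-10b 5p, 20-base forms held 77.8%, 76.7% and 77.1% of the mean, 21-base forms 14.8%, 15.4% and 15.99%, and the 19-base form 7.37%, 7.92% and 6.87%. Its most abundant form is shown with the bases that differ from hsa-mir-10a in capitals:

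hsa-mir-10b 5p: ccctgtagAAccgaatttgt

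Unlike the miR-125 5p arms, which had a single start each, hsa-mir-10b had 2 starts. Start 28 held 90.8%, 91.0% and 90.8% of the 5p mean and start 29 held 9.19%, 8.99% and 9.17%, in the numbering of the entry names. For hsa-mir-10a the later start, 24, held 71.4%, 48.1% and 73.7%. The levels behind the hsa-mir-10a shares were low, at 79.8 mean normalized counts or fewer.

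**Figure D2:**
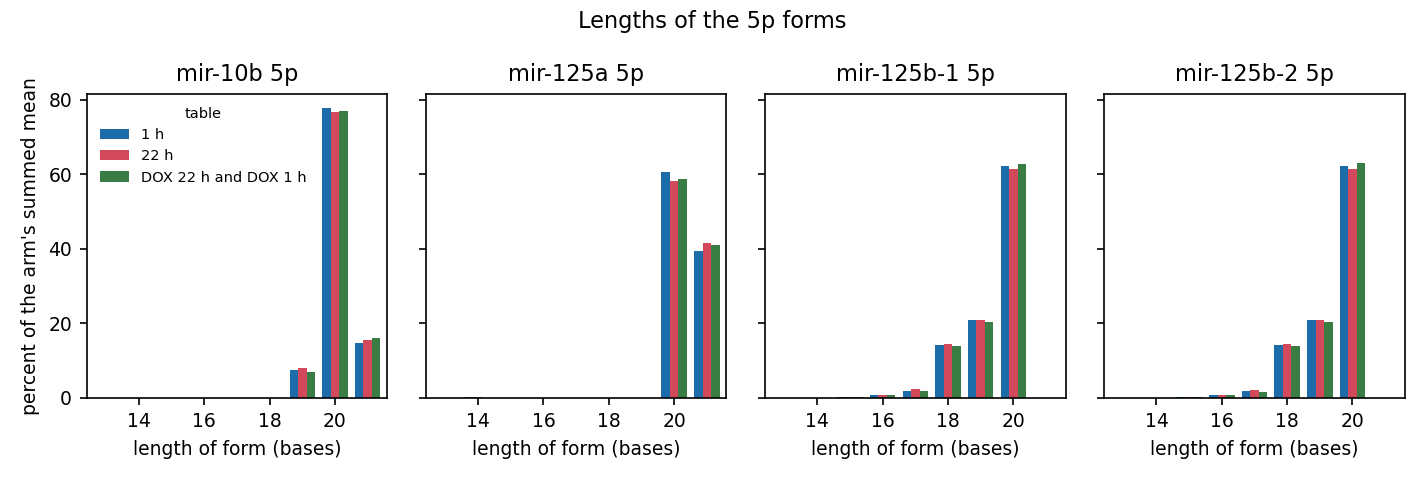
Percent of the summed mean of a 5p arm at each length of form in bases, with 1 bar per table. Bars of hsa-mir-125b-1 and hsa-mir-125b-2 step down from 20 to 17 bases, whereas hsa-mir-125a has its bars at 20 and 21 bases and hsa-mir-10b its tallest at 20 bases.

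The percent of each arm by length, drawn as bars, shows this contrast: 38.6% of hsa-mir-125b-1 5p at 22 h lay in forms shorter than its most abundant one, against 0.0954% for hsa-mir-125a 5p. The longest sequence listed for any precursor had 21 bases, so longer forms could not be seen in these tables. A main form of hsa-mir-125a lies at this limit, while the forms of miR-125b end below it. The contrast is therefore one of listed forms, and whether hsa-mir-125a forms are shortened from a longer one was not tested.

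Among the members' arms, hsa-mir-125b-1 3p had the largest share of forms with another 3′ end. The 8 most abundant of its 10 forms at start 56 are shown in order of their mean in the third table. Capitals mark the bases that follow the unbroken start shared with the most abundant form:

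hsa-mir-125b-1 3p: gggttaggctcttgggagct

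hsa-mir-125b-1 3p: gggttaggctcttgggagT

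hsa-mir-125b-1 3p: gggttaggctcttgggagc

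hsa-mir-125b-1 3p: gggttaggctcttgggag

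hsa-mir-125b-1 3p: gggttaggctcttgggagctT

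hsa-mir-125b-1 3p: gggttaggctcttgggagTT

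hsa-mir-125b-1 3p: gggttaggctcttgggagTTT

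hsa-mir-125b-1 3p: gggttaggctcttgggagA

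Set against the most abundant form at the same start, forms with another 3′ end of T alone held 34.4% of this arm for 1 h, 35.3% for 22 h and 32.7% for the third table. Ends of A alone held 2.06% at 1 h and 2.17% in the third table and were not listed at 22 h. Set against the most abundant entry of the whole arm, a choice made after seeing the data, T ends held 38.7%, 38.99% and 35.7%, and the end of that entry itself held 35.1%, 35.5% and 35.3%. Whether the T bases were encoded was not tested.

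Such ends were rare on the 5p arms of hsa-mir-10b and hsa-mir-125b-1. On hsa-mir-10b 5p a form with another end, of A alone, held 1.14%, 1.34% and 0.962%. On hsa-mir-125b-1 5p other ends held 0.195%, 0.157% and 0.146%, all of them A or AA. For hsa-mir-10a, 2 forms of 21 bases at start 24 were longer by a base than the 20-base form, which led this start in the third table only. The one ending in A had 26.5, 11.3 and 9.26 mean normalized counts, and the one ending in T had 15.2 at 1 h and 9.58 in the third table and was not listed at 22 h. The 20-base form had 15.4 at 1 h and 9.70 in the third table. Which of these ends is encoded was not tested.

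The sequences listed under both miR-125b precursors allow a look at how reads were shared out between them. In all, 9 sequences stood under both hsa-mir-125b-1 and hsa-mir-125b-2, and 7 of them had a mean under both. The share under hsa-mir-125b-1 ran from 46.7% to 54.3% over these 7 sequences and the tables, while the other 2 had a mean under hsa-mir-125b-1 only. For the 20-base form it was 49.99% for 1 h, 49.99% for 22 h and 49.95% for the third table. In the third table, 247 of 2010 sequences (12.3%) stood under more than 1 precursor, so such sharing was not particular to miR-125b.

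For 4 of the shared sequences, reads were recovered under both precursors. Their sums were 999 under hsa-mir-125b-1 and 947 under hsa-mir-125b-2 in DOX 22 h, which is 51.3% (95% exact Clopper-Pearson interval 49.1% to 53.6%). In DMSO 22 h they were 1363 and 1391, or 49.5% (47.6% to 51.4%), and in DOX 1 h 1678 and 1678, or 50% (48.3% to 51.7%). Over the 4 sequences and 3 libraries, 10 of 12 intervals held 50%. Another shared sequence had reads under hsa-mir-125b-1 only (47 in DOX 22 h, 72 in DMSO 22 h and 76 in DOX 1 h). With it the shares were 52.5% (50.3% to 54.7%), 50.8% (48.9% to 52.6%) and 51.1% (49.4% to 52.8%), so in DOX 22 h the interval then missed 50%. Intervals here and below cover counting error only, since reads amplified by PCR are not independent molecules. The split is that of reads placed at 2 loci with the same sequence, and it gives no measure of either gene.

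**Figure D3:**
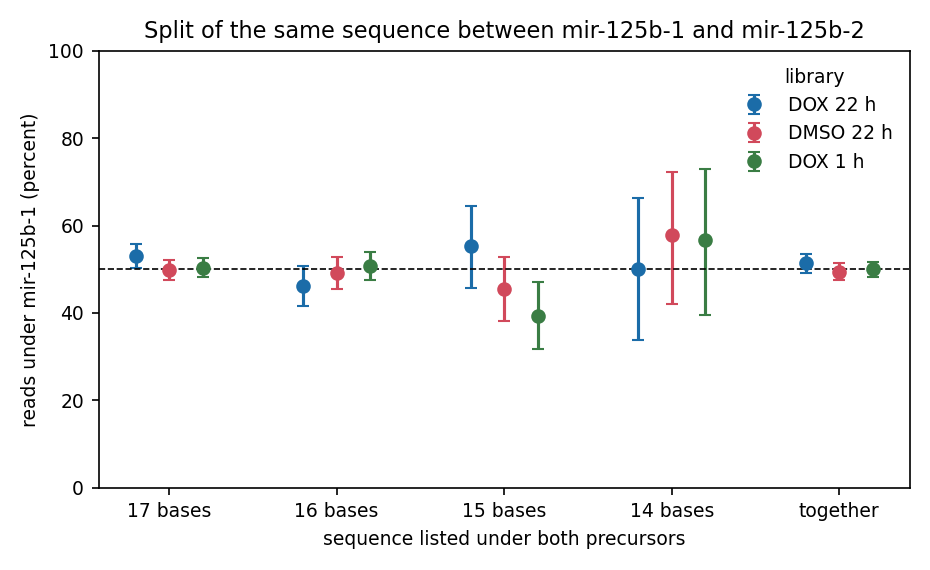
Percent of reads listed under hsa-mir-125b-1 for each of 4 sequences that also stand under hsa-mir-125b-2, and for the 4 together, in 3 libraries. Bars are 95% exact intervals for counting error, and the dashed line marks 50%, which lies inside 10 of the 12 single-sequence intervals.

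In the plot of this split, the 17-base form in DOX 22 h (687 and 609 reads) and the 15-base form in DOX 1 h (66 and 102 reads) were the 2 whose intervals missed 50%. A further sequence was shared by hsa-mir-10a and hsa-mir-10b. In the third table it had 9.70 mean normalized counts under hsa-mir-10a and 2.65 under hsa-mir-10b, where it differs from the most abundant form at its start by A8G A9T. Of the 7 entries of hsa-mir-10a, 2 carried an internal difference from the most abundant form at their start, G8A A14T T15C, with 7.43 and 2.77 in the third table and no mean elsewhere. The precursor these rare forms came from was not tested.

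The comparison of DOX with DMSO at 22 h could be read in 1 library on each side. Its direction rests on the assignment of reads to libraries, in which DOX 22 h is the group that both tables compare. Read as DOX 22 h over DMSO 22 h, the deposited fold changes had the opposite sign to the recovered reads in all entries compared. Which group those fold changes took as reference was not tested. The comparison is of single libraries and not of the conditions, has no replicate check, and allows no test. A ratio is the normalized reads of DOX 22 h over those of DMSO 22 h, with 0.5 added to each number of reads, and forms with more than 1000 reads in a compared library were left out of counts and sums unless stated. In these bulk samples, fewer cells of a type and less RNA per cell cannot be told apart.

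The shorter 5p forms of miR-125b were lower in the DOX 22 h library than in the DMSO 22 h library. The 17-base form had 687 reads in DOX 22 h, 897 in DMSO 22 h and 1110 in DOX 1 h under hsa-mir-125b-1, and 609, 903 and 1092 under hsa-mir-125b-2. The 16-base form had 229, 354 and 481 reads under hsa-mir-125b-1 and 267, 366 and 468 under hsa-mir-125b-2. The 15-base form had 63, 86 and 66 reads under hsa-mir-125b-1 and 51, 103 and 102 under hsa-mir-125b-2. In each of these, DOX 22 h had the fewest reads, although the libraries differ in depth.

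Normalized, the ratio of DOX 22 h over DMSO 22 h for hsa-mir-125b-1 was 0.681 (95% interval 0.616 to 0.753) at 17 bases, 0.576 (0.485 to 0.681) at 16 bases and 0.653 (0.463 to 0.912) at 15 bases. For hsa-mir-125b-2 it was 0.600 (0.540 to 0.665), 0.649 (0.552 to 0.762) and 0.442 (0.308 to 0.622). All 9 recovered 5p forms of miR-125b had a ratio below 1, but they are 5 sequences, 4 of them with reads under both precursors. Counted once with both precursors added, the ratio was 0.640 (0.596 to 0.688) at 17 bases, 0.613 (0.545 to 0.688) at 16 bases and 0.537 (0.421 to 0.680) at 15 bases. At 14 bases it was 0.792 (0.503 to 1.24), from 40 and 45 reads, and that interval held 1. The recovered forms hold 17 bases or fewer, and the 18 to 20 base forms that carry most of miR-125b had no single solution.

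The 18-base forms had 2 solutions each. The lower ratio of DOX 22 h over DMSO 22 h was 0.869 (0.837 to 0.902) for hsa-mir-125b-1 and 0.842 (0.811 to 0.874) for hsa-mir-125b-2, and the other was 20.2 and 17.2. Both solutions lay above the ratios of the 15 to 17 base forms. Their intervals lay above those of the 16-base and 17-base forms with reads under both precursors. The 18-base forms thus had no fall as large as that of these 16-base and 17-base forms, although their lower solutions were below 1. A further 17-base form, with reads under hsa-mir-125b-1 only, had a ratio of 0.583 (0.393 to 0.850), an interval that overlapped those of the lower solutions. For the 19-base and 20-base forms the solutions lay on both sides of 1. A fall of miR-125b as a whole can therefore not be read from its short forms.

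Summed over its recovered forms, hsa-mir-125b-1 5p had 1046 reads in DOX 22 h and 1435 in DMSO 22 h, a ratio of 0.648 (0.598 to 0.702). The sum for hsa-mir-125b-2 5p was 947 and 1391, a ratio of 0.606 (0.557 to 0.658). Among the 219 arms of all precursors with at least 100 reads, 12 stood at or below hsa-mir-125b-1 5p and 9 at or below hsa-mir-125b-2 5p, where the median of arms was 1.00. By their recovered short forms alone, both arms thus lay near the low end of the arms. They stayed short of 2-fold, which 4 of the 219 arms passed.

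The 3p arm of hsa-mir-125b-1 lay on the other side. It had 697 reads in DOX 22 h, 489 in DMSO 22 h and 915 in DOX 1 h. Its ratio of DOX 22 h over DMSO 22 h was 1.27 (1.13 to 1.43), and 41 of 219 arms stood at or above it. The 3p arm and the recovered short 5p forms attributed to hsa-mir-125b-1 therefore differed in direction between these libraries. The direction of the whole 5p arm could not be read. The 3p forms are listed under this precursor alone, and the 5p forms compared are short ones shared with hsa-mir-125b-2.

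Forms of the 3p arm differed among themselves. The 20-base form at start 56 had 270 reads in DOX 22 h, 154 in DMSO 22 h and 336 in DOX 1 h, and the 19-base form that is shorter by its last base had 112, 62 and 146. The 19-base form with a T end had 193, 170 and 267. The ratio of DOX 22 h over DMSO 22 h was 1.56 (1.27 to 1.91) and 1.60 (1.17 to 2.23) for the first 2 and 1.01 (0.817 to 1.25) for the form ending in T. The intervals of the 20-base form and the T form did not overlap, and this difference was noticed after the values were seen. The other 4 recovered 3p forms had 40 or fewer reads in DOX 22 h and ratios from 0.857 to 1.25.

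**Figure D4:**
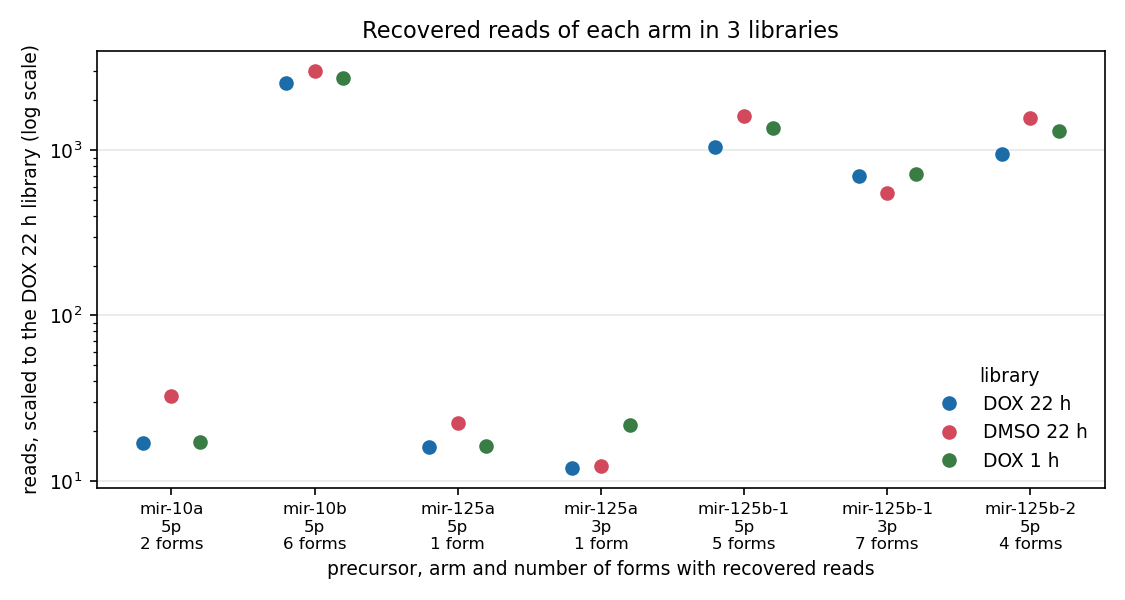
Reads of each arm in 3 libraries on a log axis, summed over its recovered forms and scaled to the DOX 22 h library by the size factors. The DOX 22 h point is the lowest of its arm except for hsa-mir-125b-1 3p, where it lies above DMSO 22 h (697 against 550). For hsa-mir-125b-1 5p it lies at 1046, against 1614 and 1364.

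For hsa-mir-10b, the most abundant 5p form had 1890 reads in DOX 22 h, 1919 in DMSO 22 h and 2515 in DOX 1 h. It lies over the limit of 1000 reads, and its ratio of DOX 22 h over DMSO 22 h was 0.876 (0.822 to 0.934). The 21-base form at the same start had 260, 278 and 403 reads and a ratio of 0.832 (0.700 to 0.989). The 19-base form had 158, 251 and 262 reads and a ratio of 0.560 (0.456 to 0.686), the lowest of this arm. At start 28 the shortest of the 3 forms thus had the lowest ratio, and the interval of the 19-base form lay below those of the other 2.

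At start 29 the forms of hsa-mir-10b had 106 or fewer reads in DOX 22 h and ratios from 0.751 to 1.01. Over the arm, the sum was 648 reads in DOX 22 h and 769 in DMSO 22 h, a ratio of 0.749 (0.674 to 0.833). With the most abundant form included it was 2538 and 2688 reads and 0.840 (0.795 to 0.887). Of 219 arms, 30 stood at or below the former value, so hsa-mir-10b 5p was not at the edge of the arms.

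Few reads were recovered for hsa-mir-10a, which was rare, and for hsa-mir-125a, whose abundant forms had no single solution. The 2 recovered forms of hsa-mir-10a had 10 and 7 reads in DOX 22 h, 14 and 15 in DMSO 22 h, and 10 and 12 in DOX 1 h, with ratios of 0.644 (0.252 to 1.54) and 0.430 (0.143 to 1.08) for DOX 22 h over DMSO 22 h. Summed, they had 17 and 29 reads and a ratio of 0.528 (0.269 to 0.981), an interval below 1 that rests on few reads. The recovered 5p form of hsa-mir-125a had 16, 20 and 21 reads and a ratio of 0.716 (0.345 to 1.44). Its 3p form had 12, 11 and 28 reads and a ratio of 0.967 (0.392 to 2.43). The intervals of the 4 single forms held 1, so with so few reads a difference was not detectable form by form. The recovered form of hsa-mir-125a 5p had 14 bases and 0.0954% of its arm at 22 h, so the main forms of this member were not compared.

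Past 2-fold, 2 of 25 member entries were lower in DOX 22 h than in DMSO 22 h and 0 were higher. They were the 15-base form of hsa-mir-125b-2 and the rarer recovered form of hsa-mir-10a. Over all entries with reads, 131 of 1085 (12.1%) passed 2-fold in either direction and 57 (5.25%) were lower, so the members' count of 2 was near this background. Members below 1 numbered 19 of 25, with a median ratio of 0.751, against 538 of 1085 with a median of 1.00. The members' entries count 4 sequences of miR-125b under both precursors.

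Length went with this shift, as seen after the values were known. Of the members' forms of up to 17 bases, 10 of 10 had a ratio below 1, with a median of 0.651. Of all forms of up to 17 bases, 102 of 194 (52.6%) were below 1, with a median of 0.974. Among longer member forms, 9 of 15 were below 1, with a median of 0.931. Short forms in general thus lay near 1, and of the members' 10 short forms 9 were those of miR-125b. Among these, 4 sequences were counted under both precursors, so the 10 forms are not independent.

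**Figure D5:**
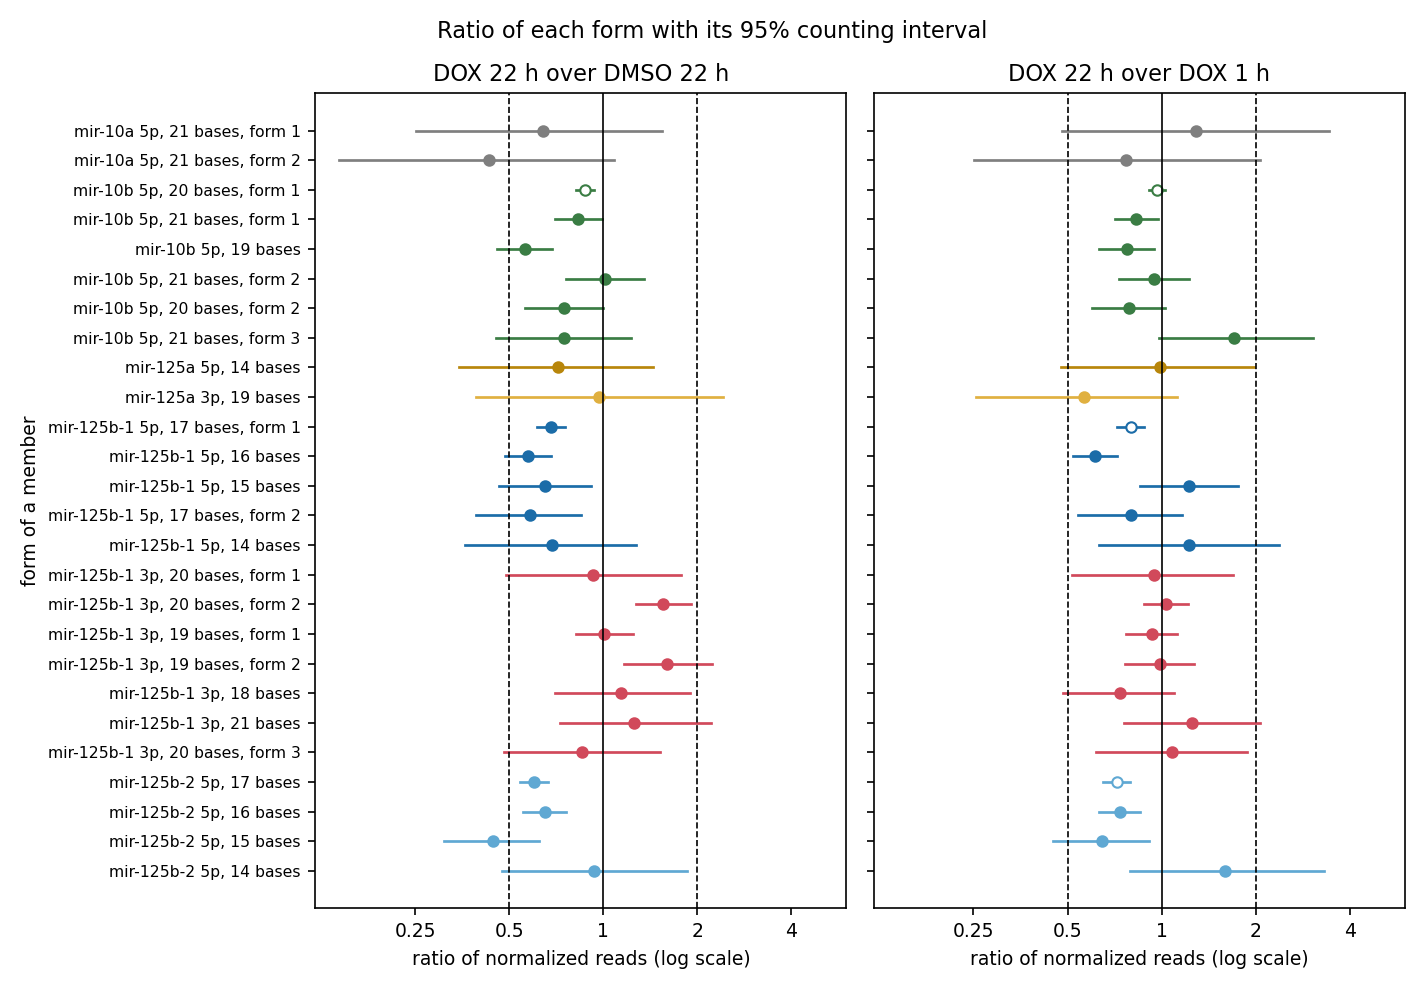
Ratio of normalized reads on a log axis for each of the 26 member forms with recovered reads, DOX 22 h over DMSO 22 h at left and DOX 22 h over DOX 1 h at right. Lines are 95% intervals for counting error, open points mark forms over the limit of 1000 reads, and the dashed lines mark 2-fold, which 2 points pass at left and 0 at right.

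The comparison of DOX at 22 h with DOX at 1 h shares the DOX 22 h library with the one above, so the 2 sets of ratios are not independent. It too has 1 library on each side. Summed over forms, hsa-mir-125b-1 5p had 359 reads in DOX 22 h and 644 in DOX 1 h, a ratio of 0.717 (0.628 to 0.817). The sum for hsa-mir-125b-2 5p was 338 and 586, a ratio of 0.742 (0.647 to 0.849). Among 227 arms, 11 and 16 stood at or below these values, and the median of arms was 1.01. With the 17-base forms included, the ratios were 0.767 (0.710 to 0.828) and 0.726 (0.669 to 0.786).

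The forms of miR-125b did not all go one way here. With both precursors added, the ratio of DOX 22 h over DOX 1 h was 0.757 (0.706 to 0.811) at 17 bases, 0.672 (0.602 to 0.750) at 16 bases, 0.874 (0.682 to 1.11) at 15 bases and 1.39 (0.866 to 2.24) at 14 bases. The intervals of the 2 shortest forms held 1. The median over the forms of hsa-mir-125b-1 5p was 0.989 with the limit of 1000 reads, which leaves out a 17-base form, and 0.798 without it. Its 15-base and 14-base forms lay above 1.

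The 3p arm of hsa-mir-125b-1 had a ratio of 0.980 (0.886 to 1.08) for DOX 22 h over DOX 1 h, from 697 and 915 reads. Its 20-base form, the T form and the form shorter by a base had ratios of 1.03, 0.930 and 0.987. The arm thus differed little between the DOX libraries at the 2 times, while both had more of it than DMSO 22 h after scaling (697 and 712 against 550). With DMSO 1 h not among the recovered libraries, an effect of time in culture was not tested.

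For hsa-mir-10b 5p the sum was 648 reads in DOX 22 h and 984 in DOX 1 h, a ratio of 0.847 (0.766 to 0.936), and 0.933 (0.886 to 0.982) with its most abundant form included. For hsa-mir-10a 5p it was 17 and 22 reads, a ratio of 1.00 (0.495 to 1.96). The 3p form of hsa-mir-125a had 12 and 28 reads and a ratio of 0.564 (0.255 to 1.12). The intervals of hsa-mir-10a and hsa-mir-125a held 1.

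Past 2-fold, 0 of the 23 member entries solved through both tables differed between DOX 22 h and DOX 1 h. Over all entries solved through both tables, 94 of 1060 (8.87%) passed in either direction and 23 (2.17%) were lower. Of 15 rarer member forms solved in the third table alone, with 7 or fewer reads per library, 7 passed 2-fold. Of all entries so solved, 60.1% did. The values that follow are again those solved through both tables. Members below 1 numbered 15 of 23, with a median ratio of 0.948, against 448 of 1060 with a median of 1.07. Sequences of miR-125b were again counted under both precursors. As in the plot of ratios by form, the members lay somewhat below all entries in both comparisons, and most of their intervals for DOX 22 h over DOX 1 h held 1.

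At 1 h, DOX and DMSO were not compared, since reads were recovered from the other tables only and the 1 h mean by itself covers both groups. The 1 h table gives the levels and the forms above. Among the members, its most abundant entries were the 20-base forms of miR-125b, with 34661 mean normalized counts under hsa-mir-125b-1 and 34682 under hsa-mir-125b-2, and that of hsa-mir-125a with 19033. The same entries led these members in the other tables.

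The precursors that lie beside the miR-125 members in the human genome were measured with them. All 6 were listed in each table (hsa-mir-99b, hsa-let-7e, hsa-mir-100, hsa-let-7a-2, hsa-mir-99a and hsa-let-7c). They held 3.51%, 3.02% and 3.06% of the 3 tables, and hsa-mir-99a was the most abundant. Their summed ratio was 0.972 (0.940 to 1.00) for DOX 22 h over DMSO 22 h and 0.909 (0.868 to 0.951) for DOX 22 h over DOX 1 h. On all recovered reads it was 0.919 (0.905 to 0.933) and 0.859 (0.847 to 0.871), so for the former the interval held 1 only with the limit of 1000 reads. These were 32733 reads in DOX 22 h and 31673 in DMSO 22 h, beside a summed mean of 144038 at 22 h, so much was not recovered. For DOX 22 h over DMSO 22 h, the 6 ranged from 0.763 (0.569 to 1.02) for hsa-mir-99a to 1.13 (1.05 to 1.21) for hsa-let-7c. Without the limit, hsa-mir-99a had a ratio of 0.976 (0.938 to 1.02), from 5014 and 4568 reads, so its place at the low end depended on the limit. Its summed mean at 22 h was 71202. Beside hsa-mir-125a, hsa-mir-99b had a ratio of 0.870 (0.819 to 0.925), and 0.614 (0.590 to 0.638) without the limit, from 4215 and 6109 reads. On all its recovered reads, hsa-mir-99b thus had a ratio close to those of the short miR-125b forms.

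Markers of cell types were counted as whole lists, and all were listed in each table. The 7 cardiomyocyte precursors held 33.5%, 35.2% and 37.1% of the 3 tables, led by hsa-mir-1-2. The smooth muscle list (2 of 2, led by hsa-mir-143) held 19.4%, 20.96% and 19.8%, and the endothelial hsa-mir-126 held 4.41%, 3.83% and 3.24%. The muscle label of the cells was thus met by its defining markers, beside high levels of vessel markers. The fibroblast list (3 of 3, led by hsa-mir-199a-1 or at 22 h hsa-mir-199a-2) held 0.266%, 0.201% and 0.197%. The blood list (4 of 4, led by hsa-mir-451a at 1 h and hsa-mir-142 otherwise) held 0.0149%, 0.00836% and 0.00923%.

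Between DOX 22 h and DMSO 22 h, the recovered reads of the cardiomyocyte list had a ratio of 0.953 (0.925 to 0.981), and 0.890 (0.873 to 0.907) without the limit of 1000 reads. With the limit, its precursors ran from 0.721 (0.661 to 0.786) for hsa-mir-499a to 1.27 (1.11 to 1.46) for hsa-mir-1-1. Without it they ran from 0.720 (0.696 to 0.745) for hsa-mir-208b to 1.15 (1.07 to 1.24) for hsa-mir-1-1. There hsa-mir-499a had 0.962 (0.911 to 1.01), so its place at the low end depended on the limit. The fibroblast list had 1.02 (0.984 to 1.05), or 1.01 (0.984 to 1.04) without the limit, and the blood list 0.961 (0.835 to 1.11) either way. The endothelial marker had a ratio of 0.894 (0.841 to 0.951) with the limit and 0.986 (0.969 to 1.00) without it. The smooth muscle list had 1.15 (1.07 to 1.23) with the limit and 0.818 (0.798 to 0.840) without it, so its direction depended on the limit. For DOX 22 h over DOX 1 h the lists had ratios of 1.14, 0.972, 1.17, 1.15 and 1.14 in the same order, and 1.05, 0.986, 1.17, 1.05 and 0.978 without the limit. Recovered reads, and so the ratios, covered little of some lists. Without the limit, the cardiomyocyte list had 20707 reads in DOX 22 h and 20689 in DMSO 22 h. Its summed mean at 22 h was 1678970. The smooth muscle list had 11224 and 12198 reads beside 1001340, and hsa-mir-126 had 26155 and 23584 beside 182810. The fibroblast list (10267 and 9018 beside 9622) and the blood list (415 and 384 beside 399) were nearly complete. The part of these cell types in the members' ratios was not tested.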

How the data were processed

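The authors aligned small RNA reads from a HiSeq2500 to human sequences with the BaseSpace application and compared groups with DESeq2, whose version is not given in the sources used here. The authors deposited a signal, the mean over both groups of reads divided by size factors. Further deposited columns hold the authors' log2 fold changes, their standard errors, p-values and adjusted p-values, and none enters a value given here. The signs of the fold changes were set against the recovered reads once, outside the scripts and after the libraries had been assigned. In all entries compared, they ran as the inverse of the ratios given here. That is DMSO 22 h over DOX 22 h, and DOX 1 h over DOX 22 h. Nothing was changed by this check, and which group the authors took as reference was not tested.

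Members and lists were chosen with earlier results of these data known, and groups were taken from the labels. Means without a decimal mark took the power of 10 nearest to the same entry in the third table, for 1506 entries at 1 h and 1323 at 22 h. At 1 h restored means were 0.318 to 3.04 times those of the third table, and a power of 10 near these ends is uncertain, as for the lowest member mean, 10.8.

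Reads were whole numbers that satisfy the means of both tables with a tolerance of 0.0001. Of 60 assignments of steps to libraries, the one used solved 1323 of 1323 entries and the next best 348. The DOX 22 h size factor was 1.12 times that of DMSO 22 h and 0.778 times that of DOX 1 h. The recovery was tested on simulated data. With 1 library on each side, no count test was run. Arms were split where starts lay more than 15 bases apart. Solving both tables together, the limit of 17 bases, the minimum of 100 reads for arms, ends set against a whole arm and the split with a sequence read under 1 precursor were chosen after seeing the data. Named sequences are the most abundant entry of each arm, those shared between members and those past 2-fold, and others shown for their ends or lengths were chosen after their values were seen. Alternatives covered filters on low means, shared sequences, added reads, scaling, limits on reads and the split into arms. Mature names of the members, 9 in the third table and all at 0, do not end in a precursor name and were not counted. Python 3.11.15, numpy 2.4.6, scipy 1.17.1 and matplotlib 3.10.9 were used.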

Additional observations from a re-analysis of the deposited data

How the results depend on the processing

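Over 94 results and 350 alternatives, no called value changed its direction. Only ratios past 2-fold could do so, and these were 2 member forms. The absence of reversals thus says little of the other values. Of 139 ratios under alternatives, 132 stayed on the same side of 1. The 7 that did not were those of hsa-mir-10a 5p and hsa-mir-125a 5p for DOX 22 h over DOX 1 h, whose main values were 1.00 and 0.987. Their alternatives reached 0.391 and 1.29 for the former and 1.69 for the latter. The share of miR-125b 5p in the members' mean moved little. Counting shared sequences once, or taking shares of the table, left it the same by construction. With means of at least 100 it was 75.1% for 1 h, 77.8% for 22 h and 78.3% for the third table, and with means of at least 10 it was 78.2% for the last. With the most abundant entry of each arm alone it was 75.1%, 78.1% and 79.0%. Of 79 levels of arms under alternatives, 39 moved, since filters leave out entries by construction, and 12 of these 39 stayed within 10 percent.

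Solving each table alone, chosen after seeing the data, changed which forms have reads. For DOX 22 h over DOX 1 h it gave 15 rare member forms, of which 7 passed 2-fold (60.1% of all entries so solved did), and a ratio of 0.882 for hsa-mir-125b-1 3p. There, hsa-mir-10b 5p went from 0.847 to 0.297, hsa-mir-10a 5p to 0.391 and hsa-mir-125a 5p to 1.69. These forms have 7 or fewer reads per library, so single reads decide them. At 22 h it gave the same 25 member entries with the same reads.

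No paired analysis was possible because the tables hold no columns per library and the recovered libraries are 1 per group. Leaving out each replicate, a replicate block and the tests planned for values per library were not run for the same reason.

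Limits: the ratios compare single libraries, and the recovered forms of hsa-mir-10a and hsa-mir-125a have 28 or fewer reads. The forms that carry most of miR-125a and miR-125b have several solutions, which leave the side of 1 open. For the 18-base forms of miR-125b they exclude a fall as large as that of the 16-base and 17-base forms with reads under both precursors. Levels rest on restored powers of 10 at 1 h and 22 h. Alignment to human sequences and the sharing out of sequences between precursors limit what a precursor name can mean.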
